A study of Mus musculus with 8 samples.

Results

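The mitochondrial ribosomal protein genes were taken as the entries whose symbol is Mrpl (large subunit) or Mrps (small subunit) followed by a number and at most 1 letter. This gave 76 genes of the 23699 entries in each table, 47 of the large and 29 of the small subunit. RNA was sequenced from mouse 3T3-L1 fibroblasts, a cell line able to become adipocytes, bought from a cell bank and kept as sub-confluent cultures. The design compared 2 groups of 4 libraries. The control group had received a pool of 3 non-targeting Stealth siRNAs, and the other group a pool of 3 Stealth siRNAs against Fto, an enzyme that removes methyl groups from RNA. Both groups were given 40 nM siRNA in a lipofection reagent for 24 hours before confluence, and both were undifferentiated preadipocytes at 2 days past confluence. The siRNAs were pooled, so an effect of lowered Fto and an off-target effect of one siRNA cannot be told apart. Since the labels leave unsaid whether libraries of a group came from different cultures, the p-values below rest on a spread that may be technical.

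Mitochondria translate the few proteins encoded in their own genome, which are subunits of the respiratory chain and of ATP synthase, on a ribosome of their own. All protein subunits of that ribosome are encoded in the nucleus, made in the cytosol and imported. The small subunit binds the mRNA and reads its codons, and the large subunit joins the amino acids. Some of the proteins have counterparts in bacterial ribosomes and others are found only in mitochondria. In fat cell precursors this system matters because mitochondria multiply when the cells become adipocytes.

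Levels are in FPKM (fragments per length of transcript and per mapped fragments), a scale on which genes can be compared with each other. All means and SDs are over n = 4 libraries. Fto was at 54.6, 55.4, 56.2 and 55.2 FPKM in control libraries 1 to 4 and at 13.8, 10.7, 12.3 and 11.6 FPKM in Fto siRNA libraries 1 to 4, 78.1% lower on average. Each library summed to between 454737 and 484842 FPKM and held 11351 to 11397 genes at 1 FPKM or more. Of the 8 preadipocyte and fibroblast markers, 7 were above 1 FPKM in every library, and Cd34 reached at most 0.838 FPKM. Summed, they reached 5861 to 6284 FPKM in control libraries and 6443 to 7465 FPKM in Fto siRNA libraries, mostly from the collagen genes Col1a1 (means of 1605 and 1897 FPKM) and Col1a2 (2932 and 3407 FPKM). Pdgfra (240 and 208 FPKM) and Pdgfrb (69.3 and 62.9 FPKM) had lower means with Fto siRNA. The 5 mature adipocyte markers summed to 50.3 to 80.3 FPKM in control libraries and 52.3 to 65.1 FPKM in Fto siRNA libraries, mostly Fabp4. All 3 endothelial, all 3 muscle and all 3 epithelial markers stayed under 1 FPKM in every library, with Myod1 and Epcam at 0. The 4 leukocyte markers summed to 1.43 to 1.89 FPKM in control libraries and 1.82 to 2.50 FPKM in Fto siRNA libraries, from Cd68 (at most 1.47 FPKM) and Csf1r (at most 1.03 FPKM), with Emr1 at 0 and Ptprc at 0.00949 FPKM at most. The part of these marker differences in the results was not tested.

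A pair of libraries stood apart for these genes. In control library 3, 67 of the 76 members were above their own mean over the 8 libraries, with a median excess of 0.12 on the log2 scale, and in Fto siRNA library 4, 64 members were above it, with a median excess of 0.07. The same 2 libraries had the highest FPKM sums, and results on the members are also given without them below.

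All 76 mitochondrial ribosomal protein genes were expressed and their levels were nearly the same in both groups. Summed over all members, the level was 3095 ± 187 FPKM (SD, n = 4) under control siRNA and 3068 ± 137 FPKM (SD, n = 4) under Fto siRNA, a difference of -0.873%. The large subunit genes summed to 1674 ± 87.8 and 1664 ± 77.4 FPKM, and the small subunit genes to 1421 ± 99.6 and 1404 ± 60.1 FPKM. Of the small subunit sums, Mrps6 alone made 435 and 432 FPKM, and its locus overlaps that of another gene (below). As a share of all FPKM in a library, the members held 0.664 ± 0.0209% in the controls and 0.661 ± 0.0197% with Fto siRNA. Each of these differences is smaller than the spread between libraries of a group. In bulk samples, a change in the amount per cell and a change in the kinds of cells cannot be told apart.

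Within the controls, the mean level of a member ranged from 4.79 FPKM (Mrps10) to 435 FPKM (Mrps6), with a median of 28.9 FPKM and quartiles of 18.8 and 48.7 FPKM. The median over the 11398 genes tested (those with a mean of at least 1 FPKM) was 15.2 FPKM. Of the 76 members, 56 lay within 2-fold of the members' median. The large subunit had a median of 30.2 FPKM and the small subunit one of 26.3 FPKM, so transcripts of both subunits were at similar levels although single genes differed widely.

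The highest large subunit genes were Mrpl52 at 129 ± 11.3 FPKM (SD, n = 4), Mrpl33 at 103 ± 9.03 FPKM and Mrpl30 at 73.5 ± 1.70 FPKM in the controls. Mrpl33 and Mrpl30 have bacterial counterparts, and Mrpl52 is a mitochondria-specific protein. With Fto siRNA the 3 genes were at 129 ± 12.9, 94.4 ± 16.6 and 71.9 ± 4.41 FPKM. The lowest were Mrpl55 at 6.90 ± 1.40 FPKM, Mrpl17 at 7.06 ± 0.595 FPKM and Mrpl41 at 7.48 ± 0.643 FPKM, which do not differ beyond their spread. Mrpl17 is the counterpart of a protein near the exit of the bacterial peptide tunnel.

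In the small subunit, Mrps6 stood far above the rest at 402, 433, 486 and 420 FPKM in control libraries 1 to 4 and 425, 426, 418 and 459 FPKM in Fto siRNA libraries 1 to 4. The groups overlapped, with a log2 difference of -0.01 (SE 0.058, limma adjusted p = 0.935), whose sign turned under some of the alternatives. The deposited locus of Mrps6 (mm9 chr16:92058580-92112472) overlaps that of Slc5a3, an inositol transporter gene, so fragments of the overlap cannot be told apart. Next came Mrps21 at 115 ± 9.89 FPKM and Mrps16 at 81.2 ± 8.06 FPKM in the controls. Mrps10 was the lowest at 4.79 ± 0.454 FPKM, with Mrps25 at 13.8 ± 1.60 FPKM and Mrps27, a protein with RNA-binding repeats, at 14.4 ± 1.27 FPKM above it. In all, 9 members overlap another gene's locus, and besides Mrps6 they are Mrpl19, Mrpl24, Mrpl41, Mrpl48, Mrpl49, Mrpl53, Mrps25 and Mrps27. GENCODE symbols also list 5 pseudogenes of 3 members (Mrpl23, Mrpl48 and Mrps36), whose reads could be shared with them, so the values of these members are uncertain.

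**Figure D1:**
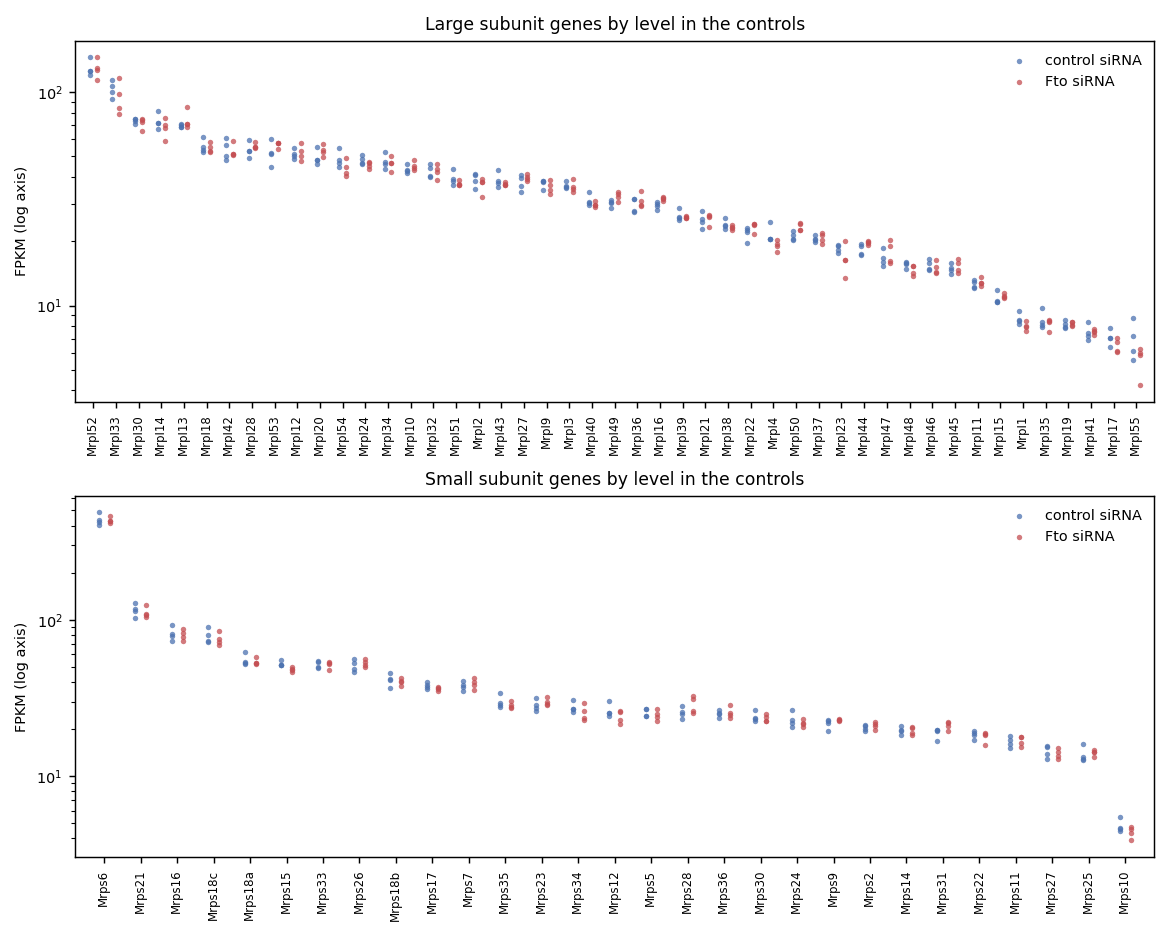
FPKM (log axis) of each large subunit gene (upper panel) and small subunit gene (lower panel), ordered by the control mean, with 1 point per library for 4 control siRNA (blue) and 4 Fto siRNA (red) libraries. The 2 colours lie on top of each other for nearly all genes, from 435 FPKM for Mrps6 down to 4.79 FPKM for Mrps10.

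Groups were compared with limma on log2(FPKM + 0.5), two-sided, and p was adjusted by Benjamini-Hochberg over the 11398 genes, with calls made under 0.05. One member was called higher, Mrpl50 of the large subunit, and 1 was called lower, Mrps15 of the small subunit. Among all tested genes 6.97% were called higher and 12.3% lower. The 2 calls make 2.63% of the members, against 19.3% called among all tested genes. Leaving out 1 library at a time gave 0 to 4 members called higher and 0 to 2 lower. The 4 came without control library 3 (Mrpl20, Mrpl44, Mrpl50 and Mrpl53, with 0 lower), where 8.26% of all tested genes were called higher and 12.6% lower. Neither direction had a call without control library 1 or 4 or Fto siRNA library 2, 3 or 4. Calls were also fewer over all tested genes when a library other than control library 3 was left out. They made 13.5% to 15.7%, against 19.3% with all 8 libraries. At an unadjusted p under 0.05, 5 members were higher (4 large, 1 small) and 2 lower (1 large, 1 small), against 12.5% of all tested genes higher and 19.9% lower. The median log2 difference was -0.01 in the large and -0.03 in the small subunit, and -0.02 over all tested genes. The members' quartiles were -0.06 and 0.05, those of all tested genes -0.11 and 0.06. Differences ran from -0.28 (Mrpl55) to 0.16 (Mrps28) among members, and neither of these end points passed the test.

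A p that misses the threshold does not show that a gene did not differ, so the intervals were examined. The 95% interval of the difference lay wholly within 1.2-fold in either direction for 62 of the 76 members (81.6%), 38 large and 24 small, against 64.2% of all tested genes. The point estimate was under 0.1 on the log2 scale, in either direction, for 55 members (72.4%) and for 56.8% of all tested genes. The groups' libraries did not overlap for 4 members: Mrpl16 and Mrpl50 were above the controls in every library, and Mrpl4 and Mrps15 below. Over all tested genes 9.08% did not overlap with Fto siRNA higher and 15.1% with Fto siRNA lower.

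**Figure D2:**
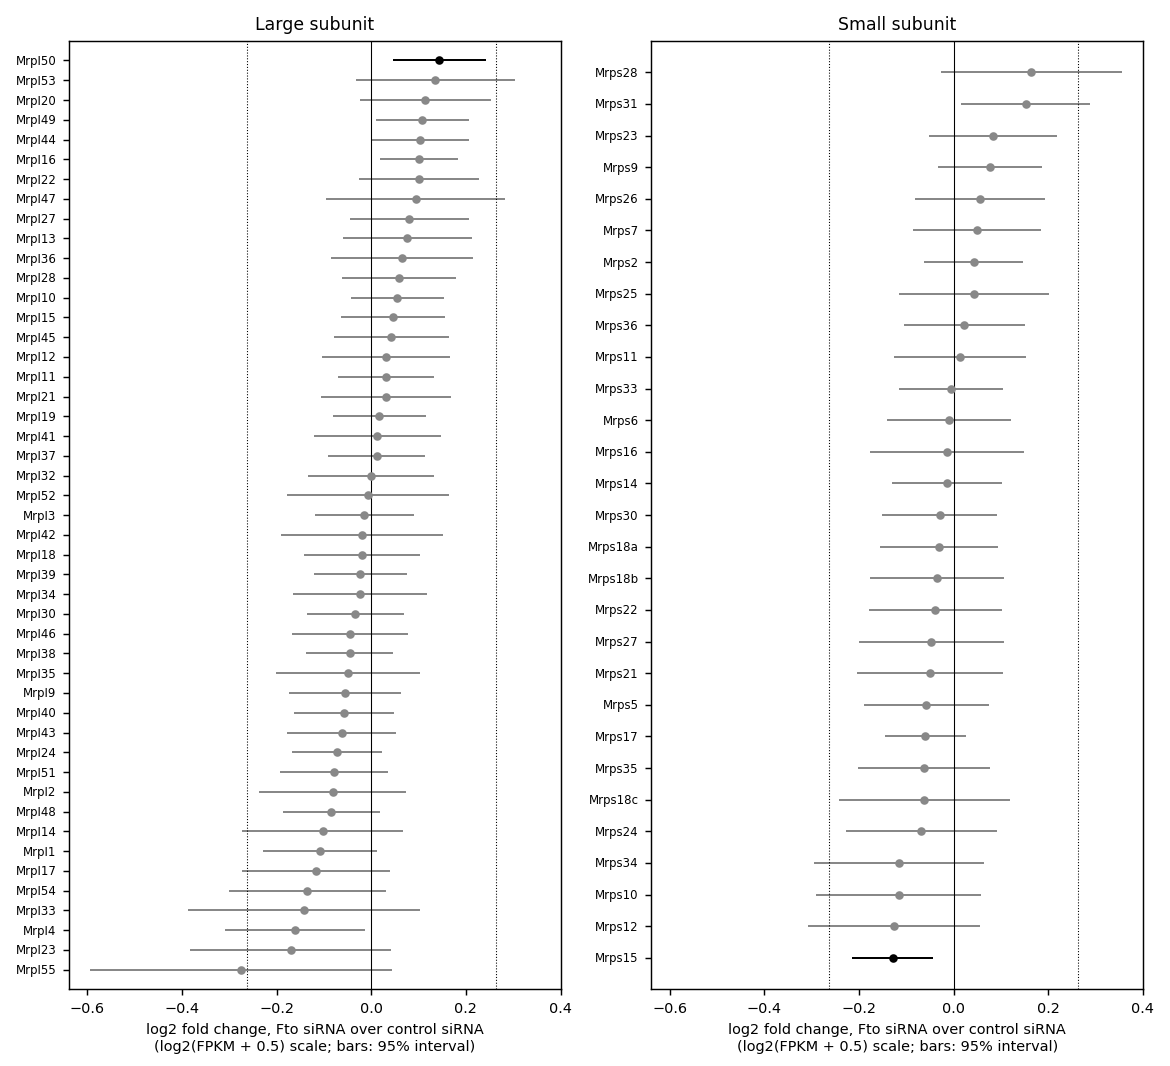
Log2 difference of Fto siRNA over control siRNA for 47 large and 29 small subunit genes on the log2(FPKM + 0.5) scale, with 95% limma intervals (bars) and dotted lines at 1.2-fold. Black points are Mrpl50 and Mrps15, the called members; 62 of the 76 intervals lie between the dotted lines, and the widest is that of Mrpl55.

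Mrpl50, a large subunit protein with no bacterial counterpart (mm9 chr4:49525468-49533955), was at 20.6, 22.3, 21.5 and 20.3 FPKM in control libraries 1 to 4. It was at 22.5, 24.5, 22.7 and 24.2 FPKM in Fto siRNA libraries 1 to 4, so each Fto siRNA library was above each control, the nearest ones by little. It rose by 0.14 on the log2 scale (SE 0.044, limma adjusted p = 0.0431), from 21.2 ± 0.907 to 23.5 ± 0.996 FPKM. The call was kept in 10 of 19 alternative settings, with adjusted p from 0.0130 to 0.114, and in 3 of the 8 fits that left out 1 library. Without control library 3 and Fto siRNA library 4 the difference was 0.14 and the adjusted p 0.0982.

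Mrps15, which has a bacterial counterpart that binds ribosomal RNA early in assembly (mm9 chr4:125724171-125732780), was at 51.5, 51.0, 55.4 and 51.4 FPKM in control libraries 1 to 4. With Fto siRNA it was at 49.6, 47.4, 46.2 and 48.2 FPKM in libraries 1 to 4, all below the lowest control. It fell by 0.13 on the log2 scale (SE 0.038, limma adjusted p = 0.0376), from 52.3 ± 2.03 to 47.8 ± 1.42 FPKM. The call was kept in 8 of 19 settings, with adjusted p from 0.0285 to 0.101, and in 1 of the 8 fits that left out 1 library. Without control library 3 and Fto siRNA library 4 the difference was -0.11 and the adjusted p 0.0763.

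The uncalled members with the lowest adjusted p were Mrpl16 and Mrpl49 in the large subunit and Mrps31 and Mrps28 in the small one. Mrpl16, whose bacterial counterpart lies by the site of peptide bond formation, was at 29.2, 28.0, 30.0 and 30.7 FPKM in control libraries 1 to 4 and at 32.1, 31.4, 31.0 and 32.1 FPKM in Fto siRNA libraries 1 to 4. All of its Fto siRNA libraries were above all of its controls, and the difference was 0.10 (SE 0.036, limma adjusted p = 0.0767). Mrpl49, a mitochondria-specific protein, was at 28.7, 30.7, 30.1 and 31.2 FPKM in control libraries 1 to 4 and at 32.2, 30.6, 33.4 and 34.2 FPKM in Fto siRNA libraries 1 to 4. Its groups overlapped in Fto siRNA library 2, and the adjusted p was 0.110. Mrps31 was at 16.8, 19.7, 19.6 and 19.5 FPKM in control libraries 1 to 4 and at 19.4, 20.96, 21.7 and 22.1 FPKM in Fto siRNA libraries 1 to 4 (limma adjusted p = 0.106). Control library 1 was low, and Fto siRNA library 1 lay just below the other 3 controls, so the groups overlapped. Mrps28 was at 23.1, 25.8, 27.9 and 25.0 FPKM in control libraries 1 to 4 and at 32.4, 26.0, 25.3 and 31.1 FPKM in Fto siRNA libraries 1 to 4 (limma adjusted p = 0.209). Only 2 of its 4 Fto siRNA libraries were above all controls.

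Mrpl55, the lowest large subunit gene and the member with the largest point estimate, was at 5.56, 7.18, 8.74 and 6.11 FPKM in control libraries 1 to 4 and at 4.23, 5.88, 6.26 and 6.01 FPKM in Fto siRNA libraries 1 to 4. The groups overlapped, the difference was -0.28 (SE 0.14, limma adjusted p = 0.210), and its interval from -0.59 to 0.04 was the widest among the members. Mrpl4, a protein that lines the peptide tunnel, was at 20.5, 20.5, 24.7 and 20.4 FPKM in control libraries 1 to 4 and at 20.4, 17.9, 19.5 and 18.9 FPKM in Fto siRNA libraries 1 to 4. The groups were apart by less than the last printed digit, and the adjusted p was 0.117.

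**Figure D3:**
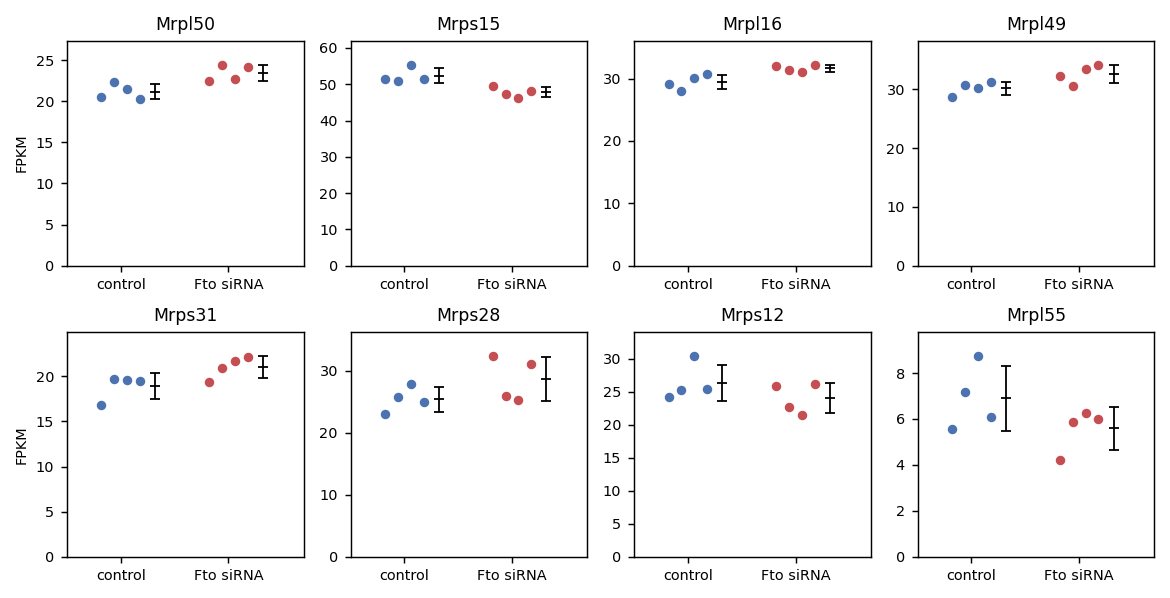
FPKM in each library (points, control siRNA blue, Fto siRNA red, libraries 1 to 4 from left to right) with mean and SD (bars, n = 4) for 8 members, each axis starting at 0. Mrpl50, Mrps15 and Mrpl16 have no overlap between groups; the shifts are small beside the levels, 21.2 to 23.5 FPKM for Mrpl50 and 52.3 to 47.8 FPKM for Mrps15.

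Several members have a role or position that their name does not show. The 3 relatives of a single bacterial small subunit protein are Mrps18a, Mrps18b and Mrps18c, of which Mrps18a sits in the large subunit in ribosome structures. Their control levels were 55.2 ± 4.43, 41.2 ± 3.85 and 78.7 ± 8.56 FPKM and their Fto siRNA levels 53.9 ± 2.31, 40.1 ± 1.76 and 75.2 ± 6.92 FPKM. None of the 3 was called (limma adjusted p of 0.752, 0.748 and 0.642), and without control library 3 all 3 differences changed sign. Mrps30, which also sits in the large subunit, was at 24.0 ± 1.63 and 23.5 ± 1.19 FPKM. Mrps36, now assigned to the 2-oxoglutarate dehydrogenase complex and not to the ribosome, was at 25.1 ± 1.15 and 25.5 ± 2.05 FPKM.

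Mrpl12, which forms the flexible stalk that recruits translation factors and is also known to bind the mitochondrial RNA polymerase, was at 51.1 ± 2.63 and 52.3 ± 4.45 FPKM in the 2 groups (limma adjusted p = 0.770). Mrpl11, at the base of that stalk, was at 12.6 ± 0.538 and 12.9 ± 0.508 FPKM (limma adjusted p = 0.683). Mrps12, a protein of the decoding site, was at 24.2, 25.2, 30.4 and 25.3 FPKM in control libraries 1 to 4 and at 25.8, 22.7, 21.5 and 26.2 FPKM in Fto siRNA libraries 1 to 4 (limma adjusted p = 0.314). Its groups overlapped widely, with control library 3 the highest.

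Further subunit proteins have symbols outside the Mrp pattern. Of 7 such genes 0 were called, against 6.97% of all tested genes called higher and 12.3% lower. At an unadjusted limma p under 0.05 there were 0 in either direction, against 12.5% of all tested genes higher and 19.9% lower. The median log2 difference of the 7 was 0.01. Ict1, a subunit with peptide release activity, was at 24.3 ± 2.78 and 22.8 ± 2.05 FPKM, and Chchd1 at 66.3 ± 4.57 and 67.8 ± 1.57 FPKM. Ptcd3, of the small subunit, was at 31.0 ± 0.621 and 30.6 ± 0.493 FPKM. Gadd45gip1, of the large subunit, was at 24.5 ± 1.94 and 24.8 ± 1.48 FPKM. For assembly of the ribosome 25 genes were tested. At an unadjusted limma p under 0.05, 1 was higher and 2 lower, against 12.5% and 19.9% of all tested genes. The median of the 25 was 0.01, and 0 of them passed the adjusted threshold of limma. The nearest were Rnmtl1, an rRNA methyltransferase, at 5.31 ± 0.317 and 4.66 ± 0.121 FPKM (limma adjusted p = 0.0545) and Mettl17, at 12.8 ± 0.230 and 11.8 ± 0.318 FPKM (limma adjusted p = 0.0700).

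A list of 14 genes for mitochondrial translation held 2 called genes. It takes in factors that bind the ribosome to start, extend and end a protein, and also Lrpprc, Mtfmt, Oxa1l and Taco1. Of the 14 genes 0 were called higher and 2 lower (14.3%), near the 12.3% of all tested genes called lower. At an unadjusted limma p under 0.05, 6 of the 14 were lower and 0 higher, against 19.9% and 12.5% of all tested genes. The median of the 14 was -0.10. Gfm1, the elongation factor that moves the ribosome along the mRNA, was at 23.1, 21.1, 20.5 and 23.3 FPKM in control libraries 1 to 4 and at 16.6, 15.8, 16.2 and 16.1 FPKM in Fto siRNA libraries 1 to 4. The groups were far apart, and it fell by 0.43 on the log2 scale (SE 0.047, limma adjusted p = 3.06e-04). Guf1, a GTPase related to elongation factors, was at 13.0, 12.3, 12.7 and 12.5 FPKM in control libraries 1 to 4 and at 9.48, 10.3, 9.90 and 9.19 FPKM in Fto siRNA libraries 1 to 4. It fell by 0.36 (SE 0.044, limma adjusted p = 5.26e-04). Both were called in all 19 alternative settings. The ribosome recycling factors Gfm2 (10.1 ± 0.614 and 9.02 ± 0.203 FPKM, limma adjusted p = 0.0528) and Mrrf (14.5 ± 0.532 and 13.2 ± 0.431 FPKM, limma adjusted p = 0.0537) were just outside the threshold, each with every Fto siRNA library below every control.

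Of 20 genes for charging mitochondrial tRNAs, 0 were called higher and 3 lower (15%, against 12.3% of all tested genes), with a median of -0.06. Sars2, the seryl-tRNA synthetase, fell by 0.31 (limma adjusted p = 0.0150), from 5.85 ± 0.390 to 4.63 ± 0.452 FPKM, and lost the call only without control library 3 and Fto siRNA library 4 (adjusted p = 0.0557, range over the alternatives 0.00763 to 0.0557). Gatc, a subunit of the glutaminyl-tRNA amidotransferase, fell by 0.17 (limma adjusted p = 0.0251) and Fars2, the phenylalanyl-tRNA synthetase, fell by 0.19 (limma adjusted p = 0.0451). These were called in 10 and 6 of 19 alternatives, and Fars2 was not called without control library 3 and Fto siRNA library 4 (adjusted p = 0.0613, range over the alternatives 0.0437 to 0.119). Of 19 genes for mitochondrial transcription and RNA processing, 0 were called higher and 2 lower (10.5%, against 12.3% of all tested genes). Pnpt1, an RNA-degrading enzyme, fell by 0.19 (limma adjusted p = 0.0159), from 39.9 ± 1.53 to 34.8 ± 1.94 FPKM. Mterf, a transcription termination factor, fell by 0.19 (limma adjusted p = 0.0370), and was called in 5 of 18 alternatives, not without those 2 libraries (adjusted p = 0.0879, range 0.0206 to 0.0980).

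Of 11 tested regulators known to act on nuclear genes for mitochondria, 2 were called higher (18.2%) and 0 lower, against 6.97% and 12.3% of all tested genes, with a median of 0.00. Myc rose by 0.18 (limma adjusted p = 0.0147), from 14.3 ± 0.768 to 16.3 ± 0.0975 FPKM, and was called in all 19 alternatives. Esrra, an orphan nuclear receptor, rose by 0.20 (limma adjusted p = 0.0336), from 12.3 ± 0.874 to 14.2 ± 0.839 FPKM, and was called in 12 of 19. Gabpa, the DNA-binding subunit of an ETS factor, was at 29.2 ± 0.190 and 27.9 ± 0.718 FPKM (limma adjusted p = 0.179).

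The proteins made on this ribosome join nuclear-encoded subunits of the respiratory chain and ATP synthase. Of 75 genes for such subunits 1 was called higher and 1 lower (1.33% each, against 6.97% and 12.3% of all tested genes), with a median of 0.01. Cox6a2, a muscle-type subunit at a low level, rose from 0.610 ± 0.101 to 2.19 ± 0.517 FPKM (limma adjusted p = 3.29e-04). It passed the filter of a mean of 1 FPKM over the 8 libraries only through its Fto siRNA libraries. It was called in 18 of 18 alternatives, including the fit without that filter. Atp5s fell by 0.19 (limma adjusted p = 0.0271) and was called in 9 of 19 alternatives. Its limma adjusted p was 0.0921 without the 2 libraries and ranged from 0.0106 to 0.114. Of 82 cytosolic ribosomal protein genes, 2 were called higher (2.44%) and 5 lower (6.10%), with a median of 0.01. Rpl4 fell by 0.22 (limma adjusted p = 0.00525), from 1101 ± 43.2 to 943 ± 20.2 FPKM, and Rpl39 rose by 0.25 (limma adjusted p = 0.0116). Many cytosolic ribosomal protein genes have near-identical copies in the genome, so their values are uncertain.

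The precision of the members' values sets how small a difference could be seen. The fragments behind a value, worked out from its deposited interval, were 52.0 to 5928 with a median of 579, and the upper interval bound lay a median of 8.34% above the value (2.77 to 23.3%). This covers counting error only. The median counting SD of a member was 0.060 on the log2 scale, while the median SD between libraries of a group was 0.096. Taken within each member, the SD between libraries was a median of 1.56 times the counting SD, and exceeded it in 65 of 76 members. The 2964 tested genes at levels between the members' quartiles had a median SD between libraries of 0.063, and 22.3% of them were called.

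The larger spread between libraries followed 2 libraries. The members' median deviation from their own mean was -0.06, -0.02, 0.12 and -0.01 in control libraries 1 to 4 and -0.02, -0.04, -0.02 and 0.07 in Fto siRNA libraries 1 to 4. Control library 3 and Fto siRNA library 4 were thus the high ones, 1 in each group. In both of them 73.7% of the members, but 28.6% of all tested genes, were above their own mean. Both subunits showed it, with 0.12 and 0.06 in the large and 0.12 and 0.07 in the small subunit. So did the nuclear respiratory chain genes (0.11 and 0.07) and the cytosolic ribosomal protein genes (0.14 and 0.04), while all tested genes had medians of 0.03 and 0.00.

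Transcript length moved with this pattern. The number of fragments per FPKM of a gene is proportional to its transcript length, and was used to divide the tested genes into 5 classes of equal size. From the shortest to the longest class the median deviation in control library 3 was 0.11, 0.08, 0.04, 0.00 and -0.07, and in Fto siRNA library 4 it was 0.05, 0.02, 0.01, -0.01 and -0.05. Of the 76 members, 55 (72.4%) fell in the shortest class. Over all tested genes of that class the median SD between libraries was 0.110, against 0.096 for all 76 members. In the same class 14.2% of the genes were called, against 2.63% of all 76 members. Both member values take in the members of the longer classes. What made short transcripts high in these 2 libraries was not tested.

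**Figure D4:**
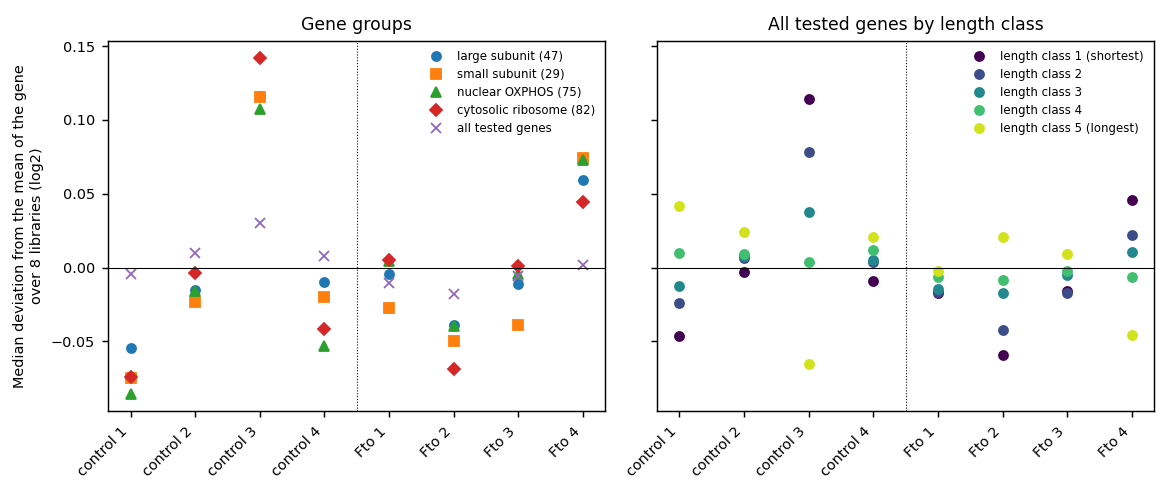
Median deviation of a gene from its mean over the 8 libraries (log2), by library, for gene groups (left) and for 5 transcript length classes of all tested genes (right). Control library 3 and Fto siRNA library 4 are high for both subunits (0.12 and 0.06 in the large, 0.12 and 0.07 in the small) and in the shortest class (0.11 and 0.05), and low in the longest.

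With these 2 libraries left out, the members' median SD between libraries was 0.068, 1 member was called higher (Mrpl20) and 0 lower, and their median difference was -0.01. Of all tested genes 6.21% were then called higher and 10.7% lower. With each library instead scaled within 20 length classes, the members' SD was 0.067, and 7 members were called higher and 2 lower, 11.8% of the members. Among all tested genes 12% were called higher and 12.7% lower on that scale. The members called higher were Mrpl16, Mrpl20, Mrpl44, Mrpl49, Mrpl50, Mrps23 and Mrps31, and those called lower Mrpl54 and Mrps15. Their calls rest on small differences, for example 0.17 for Mrpl50 (limma adjusted p = 0.0130) and -0.10 for Mrps15 (limma adjusted p = 0.0492). With median-ratio scaling of the libraries, 3 members were called higher (Mrpl16, Mrpl49 and Mrpl50) and 0 lower, while 9.53% of all tested genes were called higher and 10.7% lower. Higher calls then made 47.1% of all calls, against 36.2% without that scaling.

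The 3′ UTR was searched for GACCTTA and ACCTTAA, words that earlier work on these same data had picked because their carriers were lower with Fto siRNA, so the link itself is not independent. In the searched 3′ UTRs of GENCODE transcripts, 1491 of 10721 tested genes (13.9%) held a word, with a median difference of -0.06 and 24.9% called lower, against -0.01 and 10.6% for genes without. Fto, the target of the siRNAs, is itself among the 1491. Of 75 searched members 8 (10.7%) held a word, with a median of 0.02, a range from -0.08 to 0.06 and 0 called. A longer 3′ UTR has more places for a word, and these shares were not matched for length. Mrps15, the called lower member, is not among the 75. Among the genes listed for mitochondrial translation, the 4 holders had a median of -0.04 and the 10 others, with the called Guf1 among them, one of -0.12. Of the listed genes, 5 hold both words joined: Gfm1 (-0.43) and Rpl21 (-0.21) were called lower, and Mterfd2 (0.08), Rps15a (0.07) and Pet112l (-0.06) were not called. The 8 members' sites, all single words, are shown as the letters the search found, with the joined site of Gfm1 beside them for comparison (capitals mark the word, 5′ to 3′, GENCODE, GRCm38):
Mrpl15: gagactctACCTTAAaaagcaat
Mrpl19: ctcagactACCTTAAttagagaa
Mrpl45: gatgggaaGACCTTAgagtgtct
Mrpl48: gggaagagGACCTTActcatcta
Mrps16: tgagtatcACCTTAAaaaacaca
Mrps17: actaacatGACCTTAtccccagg
Mrps26: atggtggtACCTTAAaggataag
Mrps36: attaaacaACCTTAAtaaatatt
Gfm1: tagtaaaaGACCTTAAataaaatt
Mrps36 has the shortest searched 3′ UTR of the 8, 301 bases, and its log2 difference was 0.02, while the site of Gfm1 lies in 1679 bases of 3′ UTR. No match to the siRNAs was sought, because their sequences were not among the data used.

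Promoters were compared because genes for mitochondria are known to be controlled together by nuclear factors. RefSeq windows from 250 bases before to 50 after the start (GRCm38.p6) were matched for 67 of the 76 members, 73 windows. Words were searched on both strands as exact letters. The ETS core CCGGAAG was in 32.9% of member windows, in 18.5% of windows of tested genes and in 8.86% of all windows. The YY1 core AAGATGG was in 17.8%, 7.25% and 6.34%, and the NRF1 core GCGCATGC in 11%, 5.53% and 2.71%. In cytosolic ribosomal protein windows the ETS, YY1 and NRF1 cores were in 35.5%, 17.1% and 3.95%. In nuclear respiratory chain and ATP synthase windows they were in 22.5%, 14.1% and 14.1%. Other words are given for windows of members, of tested genes and of all genes in turn. For CCAAT the shares were 41.1%, 38.4% and 37.4%, for GGGCGG 52.1%, 64.3% and 35.7%, and for TATAAA 6.85%, 6.89% and 13.6%. The windows' median GC content was 58.3% for members and 61% for tested genes. A match is a description of letters and not a binding site. The 36 members with an ETS, YY1 or NRF1 core had a median log2 difference of -0.02, and the 31 members without had -0.01.

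Many members start next to a gene on the opposite strand. By RefSeq starts, 24 of 67 members (35.8%) had such a partner, with the pair of starts at most 1000 bases apart or overlapping by at most 200, against 1302 of 8668 tested genes (15%). Of the 24 partners 1 was called higher and 4 lower, against the 6.97% and 12.3% of all tested genes. The partners called lower were Sars2 (next to Mrps12), Mitd1 (Mrpl30), Cyb5rl (Mrpl37) and Gga3 (Mrps7), and the one called higher was Ppp1r10 (Mrps18b). None of these 5 members was called. Mrps12 and Sars2, which start 147 bases apart, had log2 differences of -0.13 (SE 0.081, limma adjusted p = 0.314) and -0.31 (SE 0.072, limma adjusted p = 0.0150), and whether the 2 differ from each other was not tested. Cyb5rl, 128 bases from Mrpl37, fell by 0.41 (limma adjusted p = 0.0133), from 3.26 ± 0.387 to 2.33 ± 0.236 FPKM, while Mrpl37 was at 20.5 ± 0.692 and 20.7 ± 1.11 FPKM.

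In 1 case both partners are members. Mrpl46 of the large and Mrps11 of the small subunit start 42 bases apart on opposite strands and had like levels. Mrpl46 was at 14.7, 14.9, 16.6 and 15.8 FPKM in control libraries 1 to 4 and at 15.2, 14.3, 14.3 and 16.3 FPKM in Fto siRNA libraries 1 to 4. Mrps11 was at 15.2, 17.1, 17.9 and 16.1 FPKM in control libraries 1 to 4 and at 17.8, 15.4, 16.2 and 17.7 FPKM in Fto siRNA libraries 1 to 4. Neither was called (limma adjusted p of 0.618 and 0.908), and the groups of both overlapped. The windows of Mrps11 (chr7:78782881-78783180, plus strand) and of Mrps12 (chr7:28741772-28742071, minus strand) are shown because each lies beside a start of another gene for mitochondrial translation, Mrpl46 and Sars2 (RefSeq, GRCm38.p6, each on its own strand 5′ to 3′, capitals mark the ETS core and the YY1 core, read as CCATCTT on the other strand):
Mrps11: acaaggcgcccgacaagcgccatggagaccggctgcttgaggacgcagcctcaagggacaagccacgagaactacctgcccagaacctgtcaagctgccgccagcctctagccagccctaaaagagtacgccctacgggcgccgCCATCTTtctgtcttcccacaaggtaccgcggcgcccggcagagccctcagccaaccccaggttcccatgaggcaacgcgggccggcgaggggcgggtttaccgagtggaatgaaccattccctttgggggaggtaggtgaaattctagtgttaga
Mrps12: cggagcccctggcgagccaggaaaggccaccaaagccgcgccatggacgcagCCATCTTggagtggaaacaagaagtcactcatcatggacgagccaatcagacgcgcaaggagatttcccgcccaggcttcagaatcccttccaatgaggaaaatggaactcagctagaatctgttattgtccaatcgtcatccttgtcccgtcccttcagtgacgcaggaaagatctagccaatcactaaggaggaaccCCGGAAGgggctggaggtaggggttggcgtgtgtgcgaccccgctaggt
The window of Mrps11 held 1 YY1 core and no ETS core, and that of Mrps12 held 1 of each. The window of Mrpl46 (chr7:78783040-78783339, minus strand) overlaps that of Mrps11 in part and does not take in the marked YY1 core.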

How the data were processed

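The deposited tables hold FPKM per gene and library with an interval and a status, per the file headers, made by the authors with TopHat2 2.0.11 and Cufflinks 2.2.1 on mm9, per the submitters' processing notes. No source used here states whether libraries kept strand. FPKM are not counts, so no count test was run, and fragments per value were derived from the interval (85.5% of 608 member values were whole within 0.1). The relative depth of the libraries was 0.880 to 1.13.

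Genes averaging 1 FPKM or more over 8 libraries, including all 76 members, were tested as log2(FPKM + 0.5) with limma 3.58.1 (R 4.3.3, trend in the prior variance, no covariate) and Benjamini-Hochberg adjustment, two-sided, threshold 0.05. Folds on this scale understate changes of low genes. Adjusted p are limma's. The fit was tested on simulated data with independent errors for each gene and library. These held no shift of short transcripts, so the test does not cover the pattern of the 2 high libraries. Python 3.11.15, pandas 2.3.3 and numpy 2.4.6 did the rest, and matplotlib 3.10.9 the plots.

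The rule names called members, the 3 highest and 3 lowest per subunit, the 2 nearest the threshold per subunit, 8 members whatever their values, and up to 4 genes with the lowest p per list. Mrpl4, Mrpl37, Mrpl46, Mrps11, the promoter partners, the holders of both 3′ UTR words and the members called only in an alternative were named after their values were seen. The members and lists were chosen with earlier results of these data known. Loci are mm9 as deposited; 3′ UTRs are GENCODE M21 (GRCm38). Alternatives were pseudocounts, filters, scalings, a replicate block, no trend, each library left out, and, chosen after seeing the data, the 2 high libraries left out and length-class scaling. The authors' compiled tables were not used.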

Additional observations from a re-analysis of the deposited data

Results flagged for a closer look

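In 26 named members the highest and lowest library of each group of 4 were compared with the rest, in 52 groups, and 5 groups held a library whose gap to its neighbour, over the group's range, exceeded Dixon's 95% critical value. Chance gives about 1 in 20 groups. In control library 3, Mrps15 was at 55.4 FPKM, Mrps25 at 16.2 FPKM and Mrps18a at 61.8 FPKM, each above the other 3 controls. In Fto siRNA library 4, Mrps18a was at 57.4 FPKM, above the other 3. In control library 1, Mrps31 was at 16.8 FPKM, below the other 3. Of the 5 values, 4 come from the 2 libraries in which most members lay above their mean.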

How the results depend on the processing

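Large subunit genes called higher numbered 1, and 0 without a filter on low values, 0 with the replicate block, 0 without a trend in the prior variance, 3 with median-ratio scaling, 5 with length-class scaling and 0 to 4 without 1 library (4 without control library 3). Large subunit genes called lower numbered 0, and 1 with the replicate block, 1 with length-class scaling and 0 to 1 without 1 library. Small subunit genes called higher numbered 0, and 1 with the block and 2 with length-class scaling. Small subunit genes called lower numbered 1, and 0 with median-ratio scaling, the block, no trend or without both high libraries, and 0 to 1 without 1 library. The cause was not tested. Of all tested genes, 19.3% were called in the main fit, 10.4% without the filter, 15.5% with the block and 18.2% without the trend. The share was 20.2% with median-ratio scaling, 24.7% with length-class scaling, 16.9% without both high libraries and 13.5% to 20.8% without 1 library. The subunit medians moved by less than 1 SD between libraries in all alternatives, an SD that took in the 2 high libraries. The median over all members, -0.017 in the main fit, changed sign in some. It was 0.019 without control library 3, 0.0027 with median-ratio scaling and 0.0035 with length-class scaling. All tested genes had medians of -0.012, 0.0022 and 0.0023 in these fits.

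The labels leave unsaid whether same-numbered libraries were paired. Their correlations were 0.0736, -0.0402, -0.19 and -0.0895, and 0 of 8 libraries correlated best with their own number. These values cannot decide whether such libraries were handled together, because the high libraries, which differ in number, both carry the shift with transcript length. With the replicate number as a block Mrps31 was called higher and Mrpl55 lower, and all calls numbered 628 higher and 1133 lower, against 794 and 1401.

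Over 58 genes and 19 alternatives, 1098 values held 956 that kept sign and side of the threshold, 86 that lost a call, 23 that gained one and 33 that changed sign, in 13 genes, 0 of them called in either fit. With median-ratio scaling the log2 difference became 0.013 for Mrpl52, 0.011 for Mrps6, 0.00595 for Mrps16 and 0.00130 for Ptcd3. With quantile normalization it became 0.014 for Mrps6 and 4.47e-04 for Mrps16, and with length-class scaling 0.019 for Mrps6 and 0.00312 for Ptcd3. Without both high libraries it became 0.016 for Mrps6, 0.033 for Mrps16, 0.00797 for Mrps30 and -0.026 for Mrps36. Leaving out 1 library gave -0.067 to 0.052 for Mrpl52, -0.055 to 0.0103 for Mrpl30, -0.022 to 0.066 for Mrpl41, -0.0201 to 0.073 for Mrpl12, -0.046 to 0.045 for Mrps6 and -0.064 to 0.048 for Mrps16. It gave -0.0597 to 0.025 for Mrps18a, -0.091 to 0.018 for Mrps18b, -0.12 to 0.00584 for Mrps18c, -0.0599 to 0.015 for Mrps30, -0.028 to 0.058 for Mrps36 and -0.0203 to 0.072 for Gadd45gip1.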
